A study of Saccharomyces cerevisiae with 6 samples.

Results

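The 571 regions described here are the nuclear contact sites of the nucleoporin Nic96 in heat-shocked *tho* cells, that is, Saccharomyces cerevisiae cells without Mft1, a subunit of the THO complex. They are the peaks of the deposited *tho* list that lie on a nuclear chromosome and have a q-value under 0.05. That list holds 664 peaks, and both deposited lists together hold 1912. Of the 664, 37 mitochondrial peaks and 56 nuclear peaks of a q-value of 0.05 or more were left out. Just inside the q-value limit lay a peak at XV 161558-161912 with a −log10 q-value of 1.31 and a fold enrichment of 1.43. Just outside it lay one at I 229642-230008 with a −log10 q-value of 1.29 and a fold enrichment of 1.37.

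The tagged *tho* cells were BY4742 derivatives (MATalpha his3Δ1 leu2Δ0 lys2Δ0 ura3Δ0) with Nic96-13myc-KanMX and mft1::NatMX, and their untagged control carried mft1::KanMX. The *wt* cells, set beside them throughout, carried Nic96-13myc-KanMX, with an untagged control of the same background. All of these strains held the plasmid pRS313, grew at 25 °C and were then kept at 37 °C for 15 min before anti-Myc ChIP-seq. With 1 tagged and 1 untagged library on each side, no replicate check and no test between strains was possible. Intervals on shares are exact binomial (Clopper-Pearson) intervals at the 95% level and cover the counting of peaks or genes only. The lists do not show the deletion itself, since *MFT1* (XIII 147505-148683) and *NIC96* held no peak of q under 0.05 in either list, nor did *ACT1*, the actin gene.

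Nuclear pore complexes are channels through the nuclear envelope, and Nic96 is a scaffold nucleoporin of their inner ring. The THO complex binds nascent RNA during transcription and packages it for export; without it, RNA tends to pair with its DNA template in R-loops. Heat shock switches on genes for protein chaperones through the factor Hsf1, which binds heat shock elements, and genes for trehalose, glycogen and other stress functions through Msn2 and Msn4, which bind the stress response element. Several induced yeast genes are known to move to nuclear pores.

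Sequences are shown for the spacers with the highest intergenic fold enrichment. They are also shown for promoters of some bound stress genes that held a match to the heat shock element, whatever the fold enrichment of their peaks. All are from the R64 assembly (sacCer3). The 4 windows of 50 bases on either side of a *tho* summit are chrI:139142-139242 between *ERP2* and *SSA1*, chrVII:987388-987488 between *SOL4* and *MGA1*, chrXIII:826690-826790 between *ATR2* and *CAT8*, and chrXII:92566-92666 between *HSP104* and *PAU17*. They are given on the plus strand, and capitals mark bases of an annotated gene, in both cases a proline tRNA gene.
ERP2-SSA1 spacer: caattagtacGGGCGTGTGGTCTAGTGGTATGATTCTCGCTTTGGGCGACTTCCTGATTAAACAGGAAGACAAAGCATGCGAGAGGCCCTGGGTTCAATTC
SOL4-MGA1 spacer: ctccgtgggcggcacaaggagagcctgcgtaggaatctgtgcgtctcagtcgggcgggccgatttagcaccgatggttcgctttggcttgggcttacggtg
ATR2-CAT8 spacer: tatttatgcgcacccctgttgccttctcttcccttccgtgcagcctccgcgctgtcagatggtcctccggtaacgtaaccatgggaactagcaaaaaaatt
HSP104-PAU17 spacer: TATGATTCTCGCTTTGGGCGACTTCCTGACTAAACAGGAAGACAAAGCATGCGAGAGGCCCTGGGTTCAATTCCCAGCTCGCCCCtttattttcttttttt
The windows of the *ERP2*-*SSA1* and *HSP104*-*PAU17* spacers lay almost wholly in the tRNA genes *TRN1* and *YNCL0001W*. The *SOL4*-*MGA1* window held no annotated gene and had a GC content of 62.4%, against 51.5% in the *ATR2*-*CAT8* window. In the promoter stretches, given on the strand of the gene, capitals mark the heat shock element searched for on either strand, the units TTC, GAA and TTC with any 2 bases between neighboring units. They are chrI:141670-141750 (minus) for *SSA1*, chrXV:380801-380859 (plus) for *STI1*, chrXII:88293-88348 (plus) for *HSP104*, chrXVI:352439-352494 (minus) for *SSE1*, chrXII:665190-665245 (minus) for *HSP60* and chrXIII:70237-70292 (plus) for *TSL1*. In *STI1* the capitals mark 2 separate elements, and in *HSP104* they mark overlapping ones.
SSA1 promoter: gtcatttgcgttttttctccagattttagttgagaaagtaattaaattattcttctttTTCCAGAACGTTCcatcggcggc
STI1 promoter: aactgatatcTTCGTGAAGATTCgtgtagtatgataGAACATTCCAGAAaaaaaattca
HSP104 promoter: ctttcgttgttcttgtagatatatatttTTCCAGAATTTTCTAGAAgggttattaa
SSE1 promoter: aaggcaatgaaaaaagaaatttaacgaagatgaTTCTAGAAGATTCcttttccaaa
HSP60 promoter: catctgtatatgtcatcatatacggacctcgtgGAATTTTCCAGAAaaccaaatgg
TSL1 promoter: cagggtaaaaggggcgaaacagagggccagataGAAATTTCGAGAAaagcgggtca

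The *tho* peaks ranged from many short, modest contacts to a few long ones of high enrichment. Fold enrichment, which sets the tagged *tho* library against the untagged one at the summit, had a median of 1.89 over the 571 peaks, with quartiles of 1.65 and 2.35 and a range of 1.26 to 24.8. In the 993 nuclear *wt* peaks of q under 0.05 the median was 1.76 and the highest value 4.40. A fold enrichment above 3 was reached by 64 *tho* peaks and 5 *wt* peaks, and one above 5 by 14 *tho* peaks and 0 *wt* peaks. The upper end thus separated the lists more than their medians did. Peaks covered 3.36% of the nuclear genome in *tho* and 3.85% in *wt*. Across the 571 *tho* peaks, width and fold enrichment had a Spearman rho of 0.44, a description over peaks that share 1 pair of libraries. The 83 peaks over 1000 bp had a median fold enrichment of 2.83, and the other 488 one of 1.82.

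**Figure D1:**
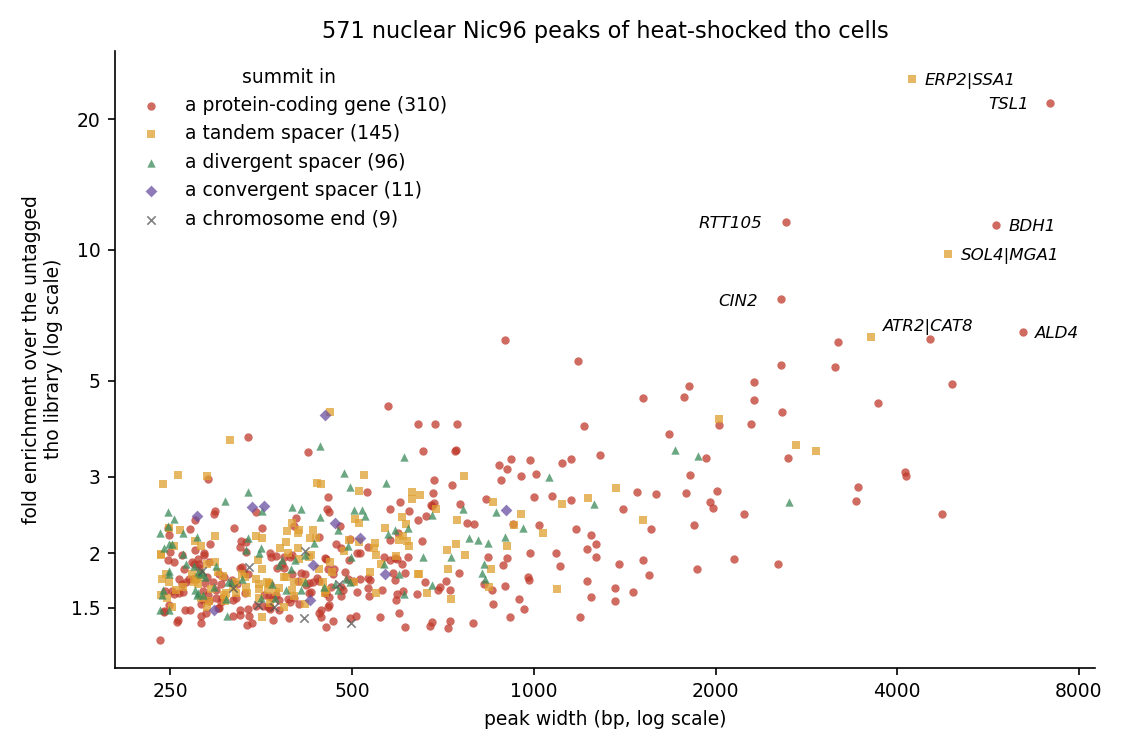
Each point is 1 of the 571 nuclear *tho* peaks, placed by its width in bp and its fold enrichment over the untagged *tho* library (both log scales), with color and marker for the place of its summit. The 8 peaks of highest fold enrichment are named by the gene that holds the summit or by the genes on either side, and all 8 are wider than 1000 bp, from the *SSA1* peak at 24.8-fold to the *ATR2*-*CAT8* peak at 6.31-fold.

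Nearly as many *tho* summits lay between protein-coding genes as inside them. Of the 571 summits, 310 were genic, which is 54.3% (50.1% to 58.4%). In *wt* 897 of 993 summits were genic (90.3%), and genes take up 72.8% of the nuclear genome. The higher *tho* shares were in the spacers that hold at least 1 promoter. Tandem spacers, between neighbors transcribed in the same direction, held 145 *tho* summits (25.4%, 21.9% to 29.2%) and 36 *wt* summits (3.63%), and make up 13.7% of the genome. Divergent spacers, which lie between 2 start sites, held 96 *tho* summits (16.8%, 13.8% to 20.1%) and 27 *wt* summits (2.72%), against 8.82% of the genome. Convergent spacers, between 2 gene ends, stayed below their share of the genome in both lists. They held 11 *tho* summits (1.93%) and 10 *wt* summits (1.01%), against 4.32% of the genome. The remaining 9 *tho* summits lay beyond the last gene of a chromosome.

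Contacts in tandem and divergent spacers were less often wide than genic ones, and their median fold enrichment was close to the genic one. It was 1.86 for genic, 1.94 for tandem and 1.97 for divergent summits. The few convergent and chromosome end summits had medians of 2.35 and 1.66. A width over 1000 bp was found for 66 of the genic peaks (21.3%), 12 of the tandem ones (8.28%) and 5 of the divergent ones (5.21%). Overlap with *wt* peaks was a smaller share among them. An overlap of at least 1 bp was found for 96 genic peaks (31.0%) and for 46 of the 261 intergenic ones (17.6%), and the difference was not tested. Of the intergenic summits 39 lay in a tRNA gene, and no genic summit did.

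Summits in spacers sat in stretches richer in G and C than the spacer around them. For 252 intergenic summits between 2 genes, the window of 100 bases on either side of the summit had a median GC content of 42.8%, against 38.2% for the whole spacer, and exceeded it in 235 (93.3%). Without the summits in tRNA genes it did so in 201 of 213 (94.4%). Windows around genic summits had a median of 43.8%, against 39.6% for genic sequence, so the excess was not particular to spacers. Windows were not cut at spacer ends and could reach into genes. The part of base composition in where peaks were called was not tested. Spacers that held a summit were also long, with a median of 1097.5 bp, whereas tandem, divergent and convergent spacers of the annotation had medians of 401, 511 and 231 bp.

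Genic *tho* summits gathered at the 3′ ends of genes, which are stop codons here, since the gene models run from start to stop codon. When each gene was cut into 5 equal parts from its start codon to its stop codon, the 310 genic *tho* summits fell into them as 40, 33, 34, 57 and 146. The part at the 3′ end therefore held 47.1% of them (41.4% to 52.8%). The 897 genic *wt* summits fell as 105, 176, 209, 245 and 162, and that part held 18.1% (15.6% to 20.7%). In *wt* the part next to it was the fullest. The share of *tho* summits in the part at the 3′ end was 40.2% for peaks of up to 400 bp, 47.0% for those of 400 to 1000 bp and 59.1% for those over 1000 bp.

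**Figure D2:**
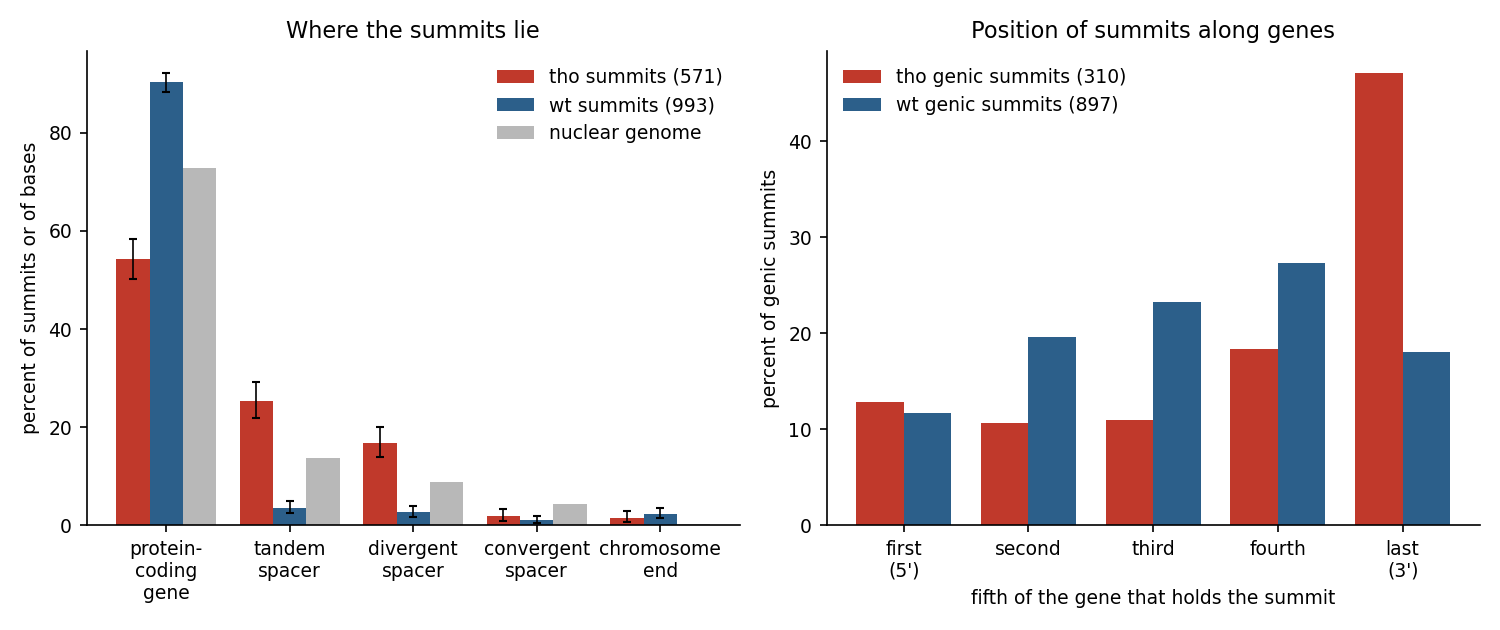
Left, percent of summits in protein-coding genes and in each kind of spacer for *tho* (571) and *wt* (993), with exact binomial 95% intervals as error bars, beside the percent of nuclear bases in that class; tandem and divergent spacers hold 25.4% and 16.8% of the *tho* summits. Right, percent of genic summits in each of 5 equal parts of the gene from the 5′ to the 3′ end; the last part holds 47.1% in *tho* and 18.1% in *wt*.

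The peak of highest fold enrichment covered *SSA1*, a cytosolic Hsp70 chaperone gene that is induced by heat. It ran from 137825 to 142051 on chromosome I, over all of *SSA1* and 80.4% of its neighbor *ERP2*, a gene of vesicle transport. Its fold enrichment was 24.8, and that of the *wt* peak there was 4.11. The summit was intergenic and lay 311 bp past the end of *SSA1*, in the proline tRNA gene shown above. *TSL1*, which encodes a large subunit of the trehalose synthase complex, had the second highest value and the widest peak. That peak spanned 7176 bp (XIII 69240-76415) and 5 genes, with a fold enrichment of 21.8, against 2.41 for the highest of 3 *wt* peaks within it. Its summit lay inside *TSL1*, 172 bp before the stop codon.

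*SSA4*, an Hsp70 gene that is nearly silent without stress, had its summit past its end in both strains, 646 bp past it in *tho* and 587 bp in *wt*, within the next gene, *RTT105*. The *tho* peak at V 366191-368811 had a fold enrichment of 11.6 and covered only 17.0% of *SSA4*, but all of *RTT105*, whose product handles the single-strand binding complex RPA. The *wt* peak there had a fold enrichment of 4.40 and *wt* peaks covered 83.9% of *SSA4*. *HSP82*, which encodes the heat-inducible Hsp90, also had the summit of its highest *tho* peak past its end. That peak (XVI 94814-97377, 7.69-fold) had its summit 607 bp past the end of *HSP82*, within *CIN2*, a gene of tubulin folding. The highest *wt* peak over *HSP82* had a fold enrichment of 2.76 and its summit 52 bp before the stop codon. Another *wt* peak, of 2.47-fold, covered the place of the *tho* summit in *CIN2*. Inside *HSP82* lay a further *tho* peak, of 2.07-fold, which met a *wt* peak of 2.46-fold.

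Among the other peaks of high enrichment were genes of carbon metabolism, transport and signaling. *BDH1*, a butanediol dehydrogenase gene, lay in a peak of 11.4-fold (I 32488-38326) that spanned 5 genes from *GDH3* to *CNE1*, and its paralog neighbor *BDH2* was covered whole. *ALD4*, a mitochondrial aldehyde dehydrogenase gene, had a peak of 6.47-fold over 6455 bp in *tho* and one of 2.72-fold in *wt*. The *tho* peak with its summit in the *SOL4*-*MGA1* spacer, beside a gene of the pentose phosphate pathway, had a fold enrichment of 9.79. The highest *wt* peak within its extent had one of 2.21, with its summit inside *MGA1*. Of the 20 peaks with the highest fold enrichment, 16 met a *wt* peak, as did 142 of all 571 *tho* peaks (24.9%). The other 4 of the 20 met none. These were at *ATR2*-*CAT8* (6.31-fold; *CAT8* encodes an activator of gluconeogenic genes), *VPS55* (6.20-fold; a gene of endosome to vacuole transport), *YIL055C* (5.54-fold) and *XBP1* (4.96-fold; a stress-induced repressor). Of the same 20 peaks, 19 were wider than 1000 bp, 14 overlapped more than 1 gene and 16 had a summit nearer to a 3′ end than to a 5′ end of a gene, at a median of 197 bp from that 3′ end. A summit nearer to a 3′ end was also found for 54 of all 83 peaks over 1000 bp and for 225 of all 310 genic summits (72.6%).

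**Figure D3:**
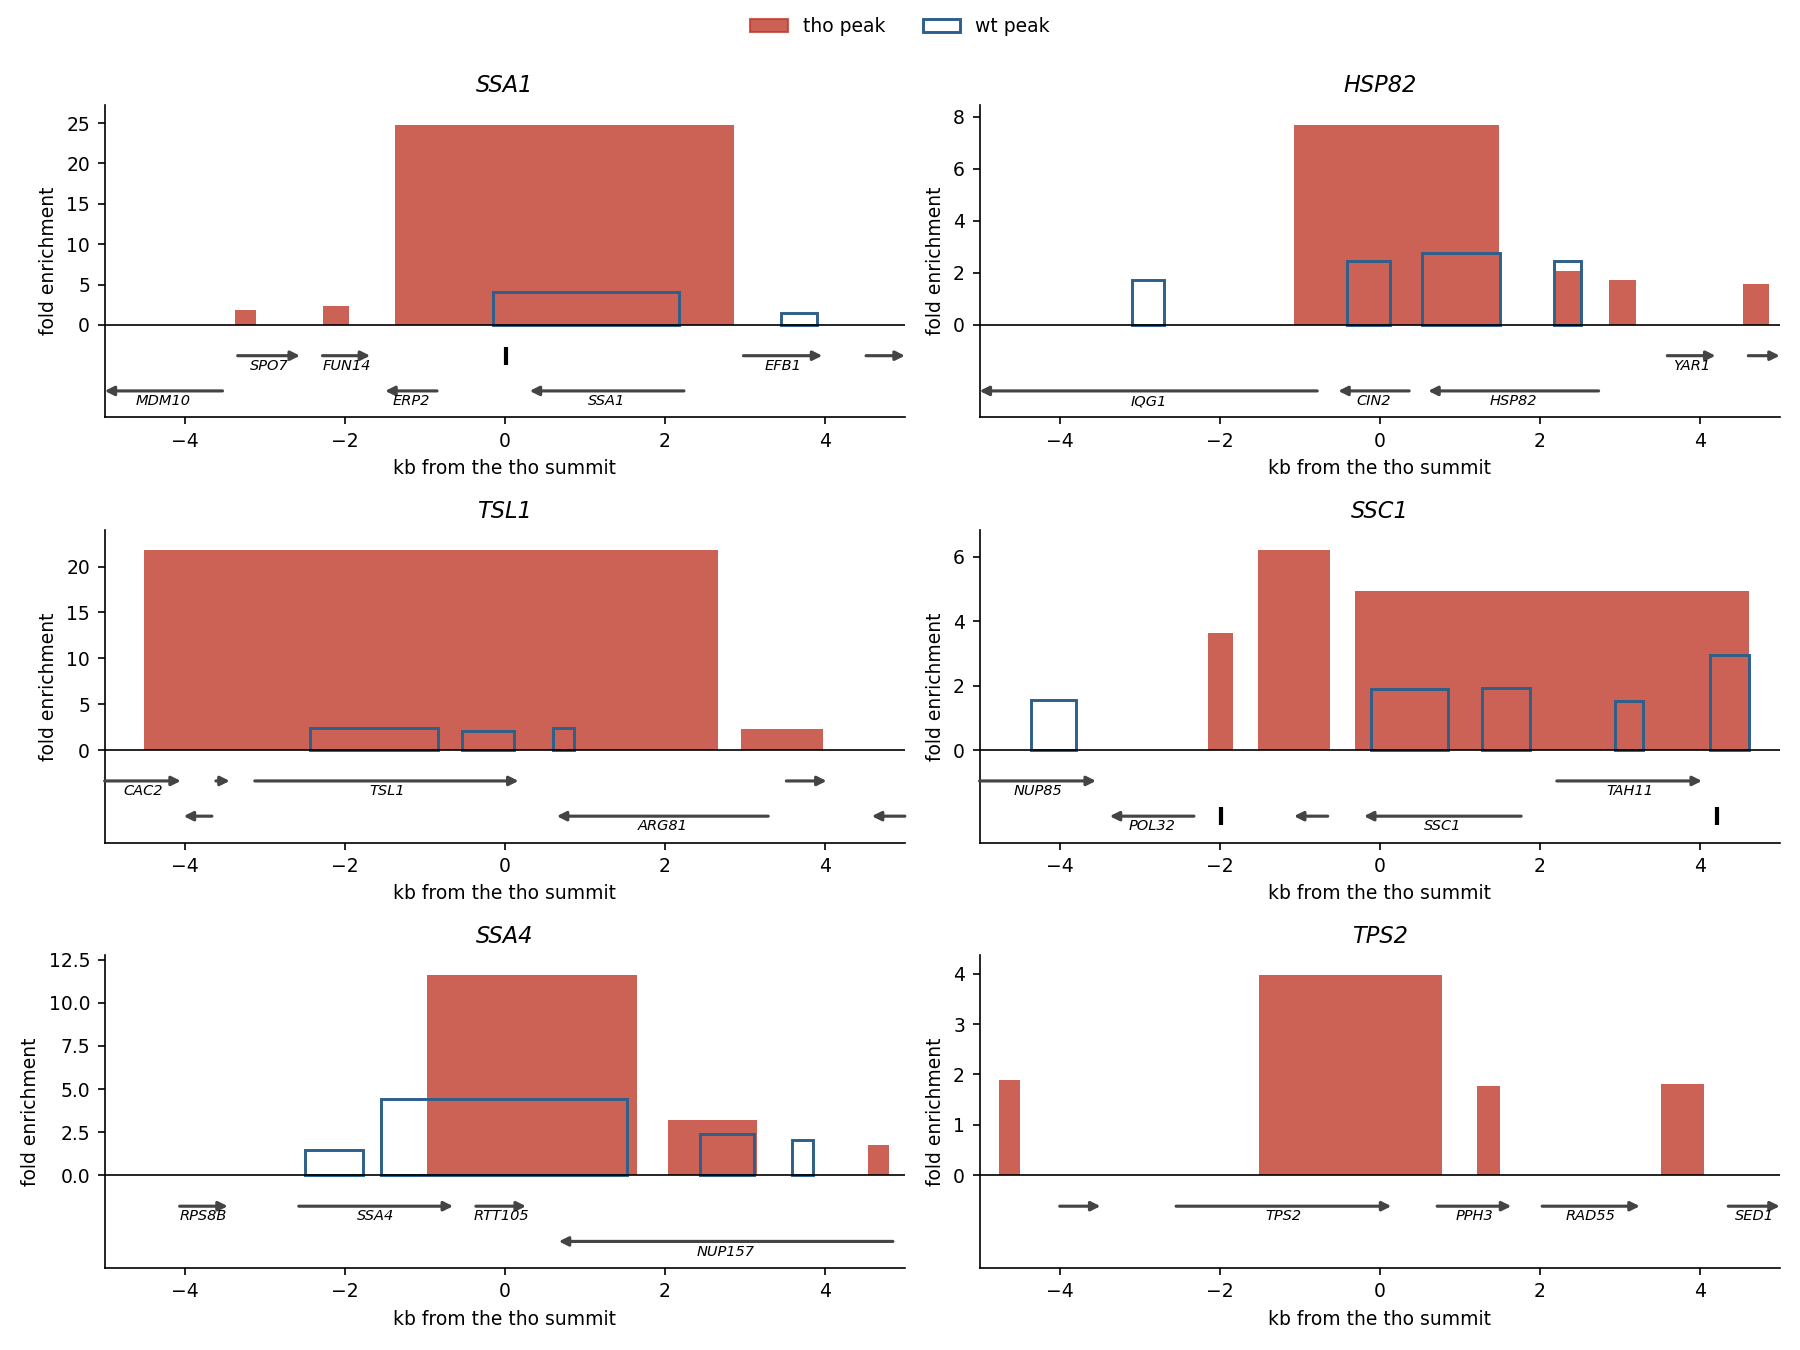
Peaks around 6 *tho* summits, with distance from the *tho* summit in kb on the x axis and fold enrichment on the y axis; filled bars are *tho* peaks, open bars are *wt* peaks of q under 0.05, arrows are protein-coding genes in their direction of transcription and black ticks are tRNA genes. Each bar has the height of the peak's summit value, 24.8 for *tho* and 4.11 for *wt* at *SSA1*, 21.8 for *tho* and 2.41 for the highest *wt* bar at *TSL1*, and *TPS2* (3.97-fold in *tho*) has no *wt* bar.

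A *tho* summit was held by 282 of the 6002 protein-coding genes (4.7%), and 448 (7.46%) were overlapped by a *tho* peak by at least 1 bp. In *wt* these were 762 genes (12.7%) and 792 genes (13.2%). Fewer genes were met in *tho*, but more of them were covered widely. *Tho* peaks covered 58 genes whole and 158 by more than 50% of their length, against 13 and 127 genes in *wt*. Both lists overlapped 163 genes, which is 36.4% of the *tho* genes and 20.6% of the *wt* genes. Genes that held a *tho* summit had a median length of 1905 bp, against 1200 bp for all genes. Among genes over 4000 bp, 40 of 240 held a summit (16.7%), and among those of 500 to 1000 bp 32 of 1517 did (2.11%). Of genes up to 500 bp, 35 of 893 did (3.92%). Per kb of gene, those shortest genes had 0.119 summits, against 0.0278 at 500 to 1000 bp and 0.0428 over 4000 bp. Of the 271 genes with an intron, 9 held a *tho* summit (3.32%).

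Several *tho* summits could fall in 1 gene, as they did in 26 genes. *IRA2*, a long gene whose product turns off Ras signaling, held 4 *tho* summits with fold enrichments of up to 6.14, and *tho* peaks covered 63.2% of its 9240 bp. The *wt* list had 6 summits in it, of at most 2.11-fold, with 33.5% covered. Next came *ADR1*, an activator of glucose-repressed genes (3 summits, up to 3.44-fold in *tho* and 2.92-fold in *wt*), *GSC2*, a glucan synthase gene of the cell wall (3 summits, up to 2.78-fold in *tho* and 2.09-fold in *wt*), and *FAS2*, a fatty acid synthase gene. *FAS2* held 3 summits of at most 2.0-fold in *tho*, and its highest *wt* value was 2.09, so it did not share the higher enrichment of the others in *tho*.

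Bound genes were often neighbors. Of the 282 genes with a summit, 100 (35.5%) had a neighboring gene with one, against 8.75% of all genes. Long peaks reached over several genes, and 49 of the 83 peaks over 1000 bp (59.0%) and 17 of the 488 shorter ones (3.48%) overlapped at least 2 genes. In addition, 170 of the 571 peaks (29.8%) had another within 1000 bp, in 76 runs of 2 to 4 peaks. The longest run spanned 7695 bp on chromosome X (517685-525379), with 85.3% of it in peaks. It went from a tRNA gene beside *POL32* (3.64-fold) over *VPS55* (6.20-fold) and *SSC1*, the Hsp70 gene for the mitochondrial matrix (4.92-fold), and the replication licensing gene *TAH11* to *ANB1* (1.63-fold). A similar run on chromosome I (135817-142051) joined *SPO7*, *FUN14*, *ERP2* and *SSA1*, and one on chromosome VI (19610-26682) joined *AQY3*, an aquaglyceroporin gene (6.23-fold), to *DAK2*, a dihydroxyacetone kinase gene.

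Of 176 genes in 14 lists of stress and metabolic functions, 26 held a *tho* summit (14.8%) and 35 were overlapped (19.9%), against 4.7% and 7.46% of all genes. The *wt* list overlapped 50 of them, against 13.2% of all genes. The lists were written with earlier results of these data known, so their shares are not independent of the data. The shares were not matched for gene length. When each summit was given to its nearest gene instead, 44 list genes were met, and 8.55% of all genes. Among cytosolic Hsp70 and co-chaperone genes, 5 of 13 were overlapped in *tho* and 7 in *wt*. These were *SSA1*, *SSA4*, *SSA2* (1.89-fold), *SSE1* (1.89-fold) and *FES1* (1.53-fold; a nucleotide exchange factor). *SSA1* and *SSA2* share long stretches of near-identical sequence, so some reads may not have been told apart there. The constitutive *SSB1*, *SSB2*, *SSZ1* and *ZUO1* of the ribosome-bound system had no *tho* peak. Of 11 Hsp90 and co-chaperone genes, 4 were overlapped in *tho* and 5 in *wt*. The 4 were *HSP82*, *HSC82* (1.57-fold), *STI1* (5.42-fold) and *AHA1* (3.30-fold). *STI1* links Hsp70 to Hsp90, and its highest *wt* value over the gene was 1.55. Over *HSC82* the highest *wt* value was 1.78, above the *tho* one, and over *AHA1* it was 2.97, close to the *tho* one.

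Among disaggregase, small heat shock protein and other *HSP* genes, 2 of 6 were overlapped in *tho* and 4 of 6 in *wt*. *HSP104*, the disaggregase gene, had a value of 1.97 in *tho* and 1.87 in *wt* within its coding sequence. The *tho* peak covered 44.2% of *HSP104*, and the *wt* peak 94.8%. Downstream, *tho* had another peak (XII 92408-92867, 4.23-fold), which met no *wt* peak. Its summit lay 1267 bp past the end of *HSP104*, in the proline tRNA gene shown above. *HSP31*, which is annotated as a methylglyoxalase gene, had a value of 1.57 in *tho* with no *wt* peak. *HSP26* and *HSP12* were overlapped in *wt* only. Near *HSP42*, a small heat shock protein gene, *tho* had a peak of 4.87-fold in the next gene, *SUP35* (translation termination), its summit being 626 bp downstream of *HSP42*, and *wt* had 2 peaks of at most 1.56-fold in the same region. In *wt*, but not in *tho*, *HSP42* itself was overlapped as well. Of 7 genes for mitochondrial chaperones, *SSC1* and *HSP60* (2.44-fold) were overlapped in *tho*, and 2 were in *wt*.

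Genes of trehalose and glycogen metabolism had the highest share of members overlapped in *tho* among the lists, and stood at a lower share in *wt*. Of 17, 8 held a summit (47.1%) and 9 were overlapped (52.9%), and in *wt* 6 were overlapped (35.3%). Beside *TSL1* they were *TPS1* (2.12-fold) and *TPS2* (3.97-fold), which make trehalose, *NTH2* (2.41-fold), a trehalase gene, and *UGP1* (2.15-fold), which supplies UDP-glucose to both pathways. On the glycogen side they were the synthase genes *GSY1* (1.78-fold) and *GSY2* (2.0-fold), the phosphorylase gene *GPH1* (2 summits, up to 2.77-fold) and the debranching enzyme gene *GDB1* (2.64-fold). Of these 9, 5 had no *wt* peak (*TPS1*, *TPS2*, *NTH2*, *GPH1* and *UGP1*). The 17 list genes had a median length of 2127 bp, and of all genes of 2000 to 4000 bp 10.7% were overlapped in *tho*.

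The other lists had fewer bound members in *tho*. Over all genes, 7.46% were overlapped in *tho* and 13.2% in *wt*. In lists of at most 20 genes, 1 gene moves the share by several percent, and differences from the shares over all genes were not tested. Of 15 alcohol, aldehyde and butanediol dehydrogenase genes, *ADH1* (2.33-fold), *ALD4*, *BDH1* and *BDH2* were overlapped, and 3 were in *wt*. Of 20 glycolytic and fermentation genes, *GLK1* (3.08-fold) and *HXK1* (2.46-fold), which phosphorylate glucose, were overlapped, and 6 were in *wt*. Of 20 cell wall protein genes, the neighbors *HSP150* and *CIS3*, which lay under 1 peak of 2.47-fold, and *SPI1* (2.52-fold) were overlapped, and 7 were in *wt*. These lists thus ran in both directions between the strains. The thioredoxin gene *TRX2* (3.76-fold) was the bound member in *tho* of 16 antioxidant genes, of which 1 was bound in *wt*. The polyubiquitin gene *UBI4* (2.54-fold) was that of 10 ubiquitin and proteasome genes, of which 3 were bound in *wt*. Of 10 stress transcription factor genes, *XBP1* and *HSF1* (2.20-fold) were overlapped in *tho* and 1 was in *wt*. None of the 17 hexose transporter genes, 7 elongation factor genes or 7 genes of THO and TREX was overlapped in *tho*, whereas 2, 2 and 1 of them were in *wt*. The THO and TREX list includes *MFT1*, which is deleted in *tho* and so could not be met there. Of 137 ribosomal protein genes 1 was overlapped in *tho* and 11 were in *wt*.

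Over the bound list genes, the *tho* summit lay close to the 3′ end. The distance from the end of the gene to the summit of the peak that overlaps it by most bases had a median of -99 bp over the 35 genes in *tho*, where a negative value is inside the gene or before it, and of -766 bp over the 50 genes in *wt*. It was within 300 bp of the end for 22 of 35 genes in *tho* (62.9%, 44.9% to 78.5%) and for 11 of 50 in *wt* (22.0%, 11.5% to 36.0%). Past the end were 10 summits in *tho* and 3 in *wt*. Most list genes overlapped in both lists showed the shift gene by gene. In 18 of 20 such list genes the *tho* summit lay further to the 3′ side, the others being *BDH1* and *HSP104*, and the median shift was 798.5 bp. The 18 include 2 genes whose summits nearly coincided. These were *SSA1* (311 bp in *tho* and 305 bp in *wt*) and *HSC82* (-385 bp in *tho* and -392 bp in *wt*). With the peak of highest fold enrichment over each gene in place of the one of most overlap, a choice made after seeing the data, 23 of 35 genes in *tho* (65.7%) and 13 of 50 in *wt* (26.0%) were within 300 bp. The *tho* summit then lay further to the 3′ side in 17 of 20 genes, with *AHA1* as a further exception (435 bp past the end in *tho* and 452 bp in *wt*), at a median shift of 724 bp. Genes that lie under 1 peak share its summit and are not independent.

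*TSL1* had its summit at -172 bp in *tho* and at -1640 bp in *wt*. At *STI1* the values were -110 bp in *tho* and -1412 bp in *wt*, and at *ALD4* they were -83 bp in *tho* and -1280 bp in *wt*. *GSY2* had its summit at -94 bp in *tho* and at -1613 bp in *wt*, and *GLK1* at -99 bp in *tho* and at -1274 bp in *wt*. *HXK1* had it at -93 bp in *tho*, and its *wt* peaks had theirs at -942 bp for the one of most overlap and at -114 bp for the one of highest fold enrichment. At *TSL1* another *wt* peak (2.10-fold) covered the place of the *tho* summit, as did a *wt* peak at *SSC1* (1.88-fold). At *SSA1*, *HSP104* and *HSC82*, by contrast, both lists put the summit within 10 bp of the same place. Over all genes the shift had the same direction and was smaller. Within 300 bp of the end were 199 of 448 genes in *tho* (44.4%) and 166 of 792 in *wt* (21.0%), and of the 163 genes overlapped in both lists the *tho* summit lay further to the 3′ side in 115 (70.6%), at a median shift of 374 bp.

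**Figure D4:**
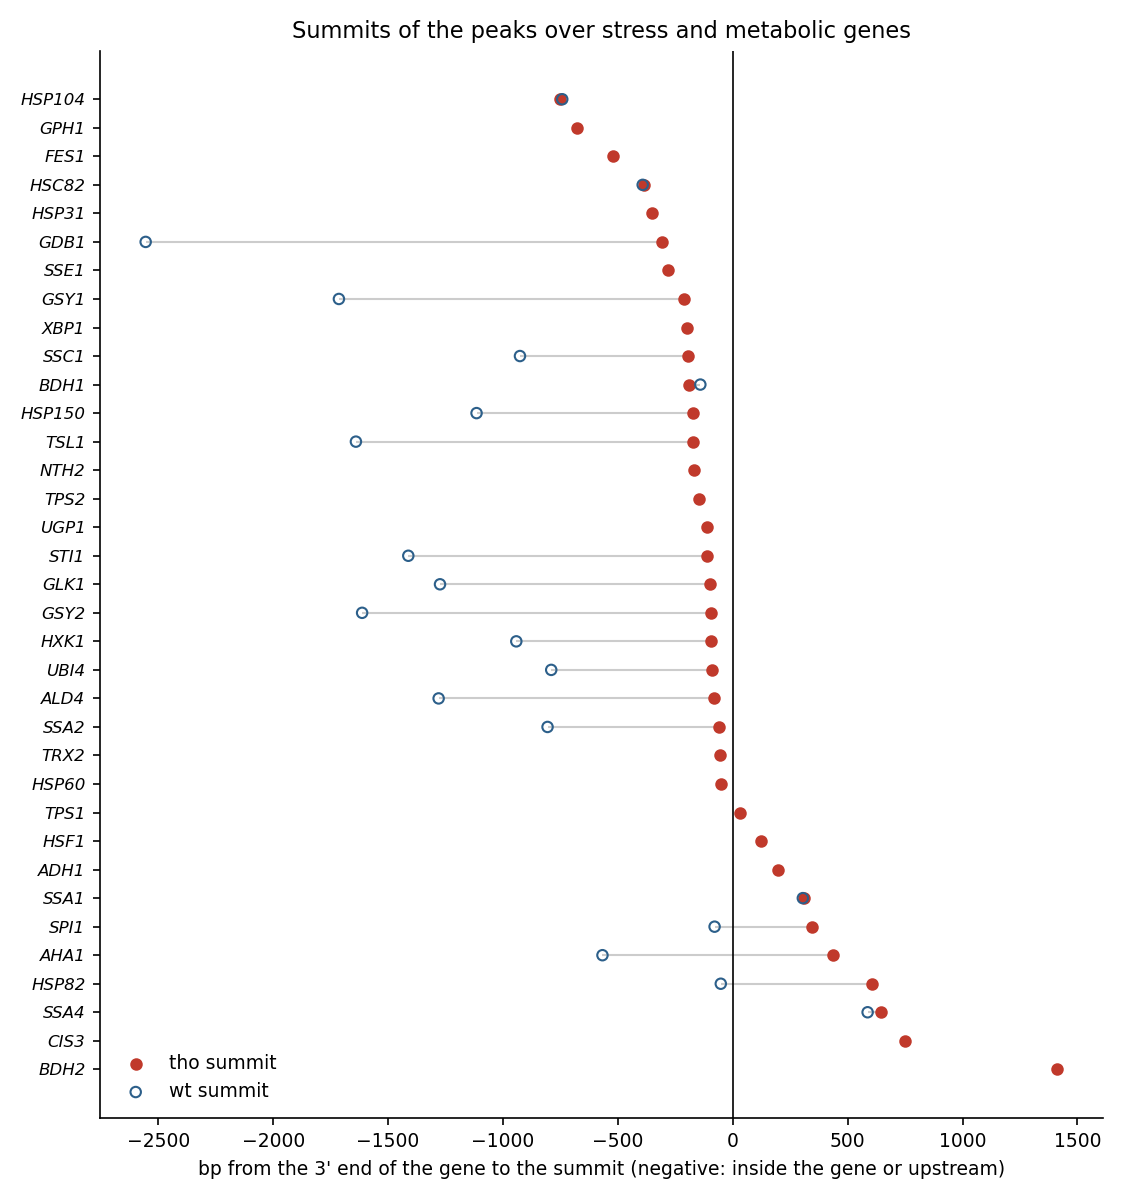
For each of the 35 list genes overlapped by a *tho* peak, the distance in bp from the 3′ end of its coding sequence to the summit of the *tho* peak (filled) and, where there is one, of the *wt* peak (open) that overlaps it by most bases, with negative values inside the gene or upstream. The filled points gather near 0, with a median of -99 bp, and in 18 of the 20 genes with both points the *tho* one lies further to the right, by only a few bp at *SSA1* and *HSC82*.

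*Tho* contacts in the spacers before start codons also met lists in which few genes were bound within the gene. A *tho* summit in the spacer at the 5′ side was found for 329 of 6002 genes (5.48%), and a *wt* summit for 88 (1.47%). Of 20 cell wall protein genes, 6 had such a *tho* summit (30.0%) and 0 a *wt* one. They were *SED1*, *TIP1*, *EXG1*, *SCW4*, *SCW10* and *GAS1*, with fold enrichments of 1.65 to 2.62. Of 17 hexose transporter genes, *HXT1*, *HXT2*, *HXT6*, *HXT7* and *HXT9* had one (29.4%), of 1.6- to 2.26-fold, and 0 had a *wt* one. *HXT6* and *HXT7* are near-identical copies, so reads may not tell their peaks apart. Of 20 glycolytic and fermentation genes, 5 had one in *tho* (25.0%) and 1, *HXK1*, in *wt*. The *tho* value was 3.06 before *CDC19*, the pyruvate kinase gene, 2.39 before *HXK1*, 2.25 before *HXK2*, 2.10 before *PFK2* and 1.62 before *PGK1*. Spacers at the 3′ side held a *tho* summit for fewer genes, 161 of 6002 (2.68%), among them 4 hexose transporter genes and 3 cell wall protein genes. A summit in a tandem spacer counts at the 3′ side of 1 gene and at the 5′ side of the next. The 3′ summits of *HXT5* and *HXT6* are therefore those already counted before *HXT1* and *HXT7*.

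The length of the spacer moved with these counts. The share of genes with a *tho* summit in the 5′ spacer was 0.276% for spacers of up to 250 bp, 6.99% for those of 500 to 1000 bp, 18.1% for those of 1000 to 2000 bp and 26.0% for longer ones. The median 5′ spacer was 1188 bp for the hexose transporters, 1027.5 bp for the cell wall list and 714.5 bp for the glycolytic list, against 448 bp for all genes. Whether these lists stood apart at equal spacer length was not tested. Ribosomal protein genes had such a summit in 11 of 137 (8.03%) in *tho* and 1 in *wt*, among the *tho* ones them a summit between the divergent pair *RPL13B* and *RPS16A* (1.65-fold). Of the list genes, *GSY1*, *GSY2*, *GPH1*, *HXK1*, *HSP82* and *XBP1* had a *tho* summit both in the gene and in the spacer before it. The summit in the *GPH1* spacer lay in a tRNA gene, 873 bp before the start codon. Summits counted in the 5′ spacers of *PGM1*, *PPT1* and *RPS25B* also lay in tRNA genes.

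**Figure D5:**
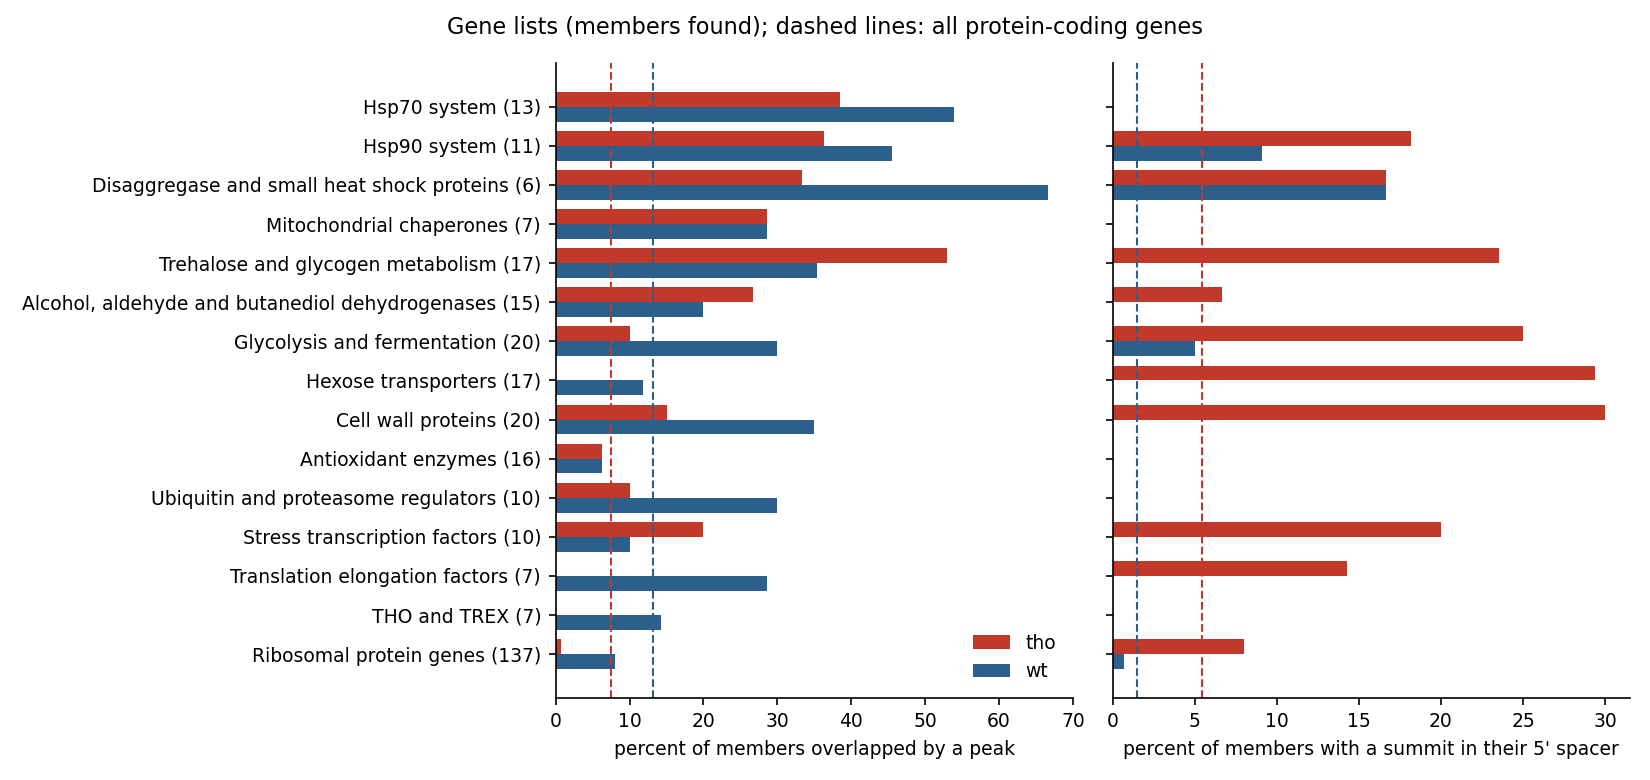
Left, percent of each list's members overlapped by a peak, and right, percent with a summit in the spacer at their 5′ side, for *tho* above *wt* in each list; dashed lines are the percents over all 6002 protein-coding genes (7.46% in *tho* and 13.2% in *wt* on the left, 5.48% in *tho* and 1.47% in *wt* on the right). Trehalose and glycogen genes stand at 52.9% on the left in *tho*, and cell wall proteins and hexose transporters at 30.0% and 29.4% on the right.

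Promoters of bound genes held the 2 stress motifs in larger shares than promoters at large, a difference that was not tested. In the 500 bases before the start codon, searched on both strands, the heat shock element (TTC, GAA and TTC with any 2 bases between units) was found in 89 of 6002 promoters (1.48%). It was found before 20 of the 448 genes overlapped in *tho* (4.46%, 2.75% to 6.81%) and 21 of the 792 overlapped in *wt* (2.65%). In the 4 chaperone lists it preceded 8 of the 13 genes overlapped in *tho* and 4 of the 24 not overlapped. The 8 were *SSA1*, *SSA2*, *SSE1*, *FES1*, *STI1*, *AHA1*, *HSP104* and *HSP60*, and the 4 were *SIS1*, *HSP10*, *HSP42* and *HSP78*. The other overlapped genes, *SSA4* (11.6-fold), *HSP82* (7.69-fold), *SSC1* (4.92-fold), *HSC82* and *HSP31*, had no match. Only this strict form of the element was searched for, so looser forms would be missed. The stress response element AGGGG was found at least once in 34.1% of all promoters, in 46.2% of those of genes overlapped in *tho*, in 40.4% of those of genes overlapped in *wt* and in 55.3% of those of genes under a *tho* peak over 1000 bp. It did not separate bound from unbound trehalose and glycogen genes, since it preceded 8 of 9 and 7 of 8. These matches describe the letters of the promoters only.

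Transfer RNA genes were overlapped by a *tho* peak in 46 of 275 cases (16.7%) and by a *wt* peak in 30 (10.9%). The 39 summits within a tRNA gene had a median fold enrichment of 2.27, and 24 lay in tandem, 14 in divergent and 1 in convergent spacers. The families with most genes met in *tho* were serine (8 of 19 genes, 6 in *wt*), isoleucine (5 of 15, 5 in *wt*), valine (5 of 18, 2 in *wt*) and proline (4 of 12, 3 in *wt*). Copies with the same anticodon are near-identical in sequence. No *tho* summit lay in a long terminal repeat. Near the chromosome ends, within 20000 bp of them, lay 65 *tho* summits (11.4%) and 156 *wt* summits (15.7%), against 5.30% of the genome, and 38 of those 65 peaks were made mostly of sequence that occurs more than once. Over the chromosomes the *tho* peaks were densest on I, with 8.69 peaks per 100 kb, and sparsest on XI, with 2.25; *wt* had 13.0 on I and 5.10 on XI.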

How the data were processed

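Nic96 ChIP-seq libraries of heat-shocked *tho* and *wt* cells were used as peak lists, 1 per strain. Per the paper's methods, the authors aligned read pairs with Bowtie2 to sacCer3, allowing no mismatch, removed duplicates with SAMtools and called peaks with MACS2; the deposited lists are labelled as tagged against untagged library. The deposited columns hold a score, the fold ratio at the summit, and the −log10 p-value and q-value. The tool list also names deepTools 3.3.2. Read numbers are not given in the sources used here, so depth is unknown and limits the precision.

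The stated threshold, q under 0.05, was applied because the deposited q-values reach 0.192 in *tho* and 0.178 in *wt*. Starts were converted to count from 1. Genes were read from the R64 annotation, and each summit was placed in a gene or a spacer. Overlap meant at least 1 bp. Repeated sequence was taken as 75-mers that occur more than once. No fit across genes was made, and comparisons are counts and medians. Members, lists and distances were chosen with earlier results of these data known. Genes named are those at the 20 peaks of highest fold enrichment, the 10 widest and the 10 highest intergenic ones, those with several summits or in the longest runs, bound list members, and *MFT1*, *NIC96*, *ACT1* and other loci the study names. The motifs and the distance limit of 300 bp were chosen by hand. *RPP1*, an RNase P gene, was kept out of the ribosomal protein list. Code was tested on simulated data. Tables were handled with pandas 2.3.3 and numpy 2.4.6 in Python 3.11.15, intervals came from scipy 1.17.1 and plots from matplotlib 3.10.9. Alternatives covered the q-value limit, merging within 200 bp, the peak middle, gene ends extended by 100 bp, repeats and overlap rules.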

Additional observations from a re-analysis of the deposited data

Results flagged for a closer look

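Outside the nuclear peaks, the *tho* list held 37 peaks of q under 0.05 on the mitochondrial chromosome, with a median fold enrichment of 10.7 (2.01 to 18.6), and the *wt* list held 0. They drew attention as a signal in data that the nuclear comparisons do not use. Their part in the nuclear peaks was not tested.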

How the results depend on the processing

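Of 67 alternatives for summary values, 63 moved them by less than the spread allowed and 4 by more; the 3 with the peak of highest fold enrichment over a gene were chosen after seeing the data. With no q-value limit the median fold enrichment was 1.84 in place of 1.89. With the middle of the peak in place of its summit, 49.9% of peaks were genic in place of 54.3%. When at least 50% of each peak of a pair had to be shared, 10.7% of *tho* peaks met a *wt* peak in place of 24.9%. When each summit was given to its nearest gene, 44 list genes were counted in place of 26. Of 105 alternatives for counts of single lists, 86 stayed within 1.5 times and 19 did not; the counts are small. No paired analysis was possible because each strain has 1 peak list. Depth is unknown, so the lists may differ in how weak a contact each could call, and strain, library and control cannot be told apart.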
